A study of Homo sapiens with 4 samples.

Results

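The genes described here encode the nuclear end of the Hippo pathway: the coactivators YAP (YAP1) and TAZ (WWTR1), the DNA-binding TEAD factors TEAD1, TEAD2, TEAD3 and TEAD4, and the vestigial-like cofactors VGLL1, VGLL3 and VGLL4. They were chosen by name, through their Ensembl identifiers in GENCODE release 29 on hg38, and all 9 were found among the 26518 genes of the deposited table. The RNA came from MDA-MB-468 cells, an established human line of triple-negative breast cancer, and was read by RNA-seq. The 2 shSASH1 libraries came from cells infected with a lentivirus carrying a hairpin against SASH1, a SAM- and SH3-domain scaffold protein. The 2 shControl libraries came from cells infected with the pGIPZ-CTRL control virus, and both kinds of cell were selected with puromycin as stable clones and grown in DMEM with serum. The number of clones and of hairpins is not given in the sources used here, nor whether paired libraries stem from separate cultures. The p-values therefore reflect the spread among these 4 libraries and no more, and that spread may be technical.

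YAP and TAZ have no DNA-binding domain of their own and reach promoters and enhancers by binding TEAD proteins. The Hippo kinases LATS1 and LATS2 phosphorylate both coactivators, which are then held in the cytoplasm by 14-3-3 proteins or degraded. VGLL proteins bind the same TEAD surface through a short Tondu motif. VGLL4 competes with YAP and is known as a repressor of its output, whereas VGLL1 forms complexes with TEADs in which it takes the place of YAP or TAZ. RNA abundance does not show where these proteins lie in the cell or whether they are phosphorylated, and much of their control is known to act there.

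SASH1 stood at 3.65 and 4.01 TPM in shSASH1, against 14.99 and 13.03 TPM in shControl (log2 change -1.63, limma adjusted p = 0.00391). Levels are in TPM, a unit corrected for gene length and for library total, so that different genes can be compared. Reads rebuilt from the TPM values came to between 19567965 and 24395580 per library, and the tested members had between 723 and 4686 of them in a library. The shSASH1 libraries differed from each other more than the shControl libraries did, with a median SD of 0.126 and 0.0507 log2 units over genes. All 10 breast epithelial markers examined were above 1 TPM in every library, summing to 9447 and 7895 TPM in shSASH1 and to 8540 and 8723 TPM in shControl. Among them EGFR rose (log2 change 0.97, limma adjusted p = 0.00340). The other epithelial markers did not pass, and all of them but CLDN4 had a log2 change below 0. Of 6 fibroblast markers only COL1A1 passed 1 TPM, and LUM and COL1A2 were at 0 in every library. Of 6 leukocyte markers only CD14 passed 1 TPM, at 33.3 and 96.5 TPM in shSASH1 against 33.2 and 39.9 TPM in shControl, while the pan-leukocyte gene PTPRC reached at most 0.104 TPM and LYZ was at 0. Endothelial markers summed to 3.91 and 3.08 TPM in shSASH1 and to 3.96 and 3.66 TPM in shControl, and of the adipocyte markers only PLIN1 was above 0, at 1.89 and 3.62 TPM in shSASH1 and 4.72 and 3.34 TPM in shControl.

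Promoter windows are shown for the most abundant member that rose (VGLL1), for the coactivator gene that rose (WWTR1) and for the coactivator gene that did not pass the test (YAP1). Each runs from 250 bases before to 50 bases after a RefSeq start site (GRCh38.p14), 5′ to 3′ on the gene's strand. Capitals mark the core TEAD motif GGAATG on either strand, which reads CATTCC on the other strand.
VGLL1 (chrX:136531965-136532264, plus strand): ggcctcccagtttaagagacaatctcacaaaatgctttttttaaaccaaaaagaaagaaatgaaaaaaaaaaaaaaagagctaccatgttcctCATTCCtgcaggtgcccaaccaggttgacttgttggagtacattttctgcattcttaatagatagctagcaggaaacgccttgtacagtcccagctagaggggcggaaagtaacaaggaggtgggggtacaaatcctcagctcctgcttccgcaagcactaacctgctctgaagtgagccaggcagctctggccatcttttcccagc
WWTR1 (chr3:149657976-149658275, minus strand): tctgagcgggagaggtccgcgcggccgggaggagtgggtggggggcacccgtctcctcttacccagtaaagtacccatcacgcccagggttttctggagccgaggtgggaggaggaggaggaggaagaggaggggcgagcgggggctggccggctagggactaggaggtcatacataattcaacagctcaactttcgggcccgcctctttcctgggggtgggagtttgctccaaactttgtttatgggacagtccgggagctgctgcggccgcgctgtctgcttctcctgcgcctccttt
YAP1 (chr11:102110197-102110496, plus strand): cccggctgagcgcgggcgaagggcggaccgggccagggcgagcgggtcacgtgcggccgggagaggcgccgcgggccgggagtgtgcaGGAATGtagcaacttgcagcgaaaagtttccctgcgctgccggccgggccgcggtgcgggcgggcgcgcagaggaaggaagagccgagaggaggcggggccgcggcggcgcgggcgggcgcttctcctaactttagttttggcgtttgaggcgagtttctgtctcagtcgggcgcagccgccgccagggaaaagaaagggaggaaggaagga

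The motif lay at -162 from the YAP1 start and at -157 from the VGLL1 start. RefSeq windows were matched for 7 of the 9 genes, 13 windows in all, and these 2 were the only ones with the motif. No window was matched for TEAD1 and TEAD4, both of which rose. Another WWTR1 window (chr3:149703224-149703523) is not printed. Of 27305 genes with a window, 16.7% had the motif in at least 1 window. The AP-1 motif TGANTCA was in none of the 13 windows and in 7.71% of the 35116 windows of all genes. The windows differed in composition, with 45.7% G and C in VGLL1, 63.0% in WWTR1 and 70.7% in YAP1. A match in such a window is a description of its letters and not evidence of binding.

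Of the 8 members that passed the filter of a mean of at least 1 TPM, 5 rose in shSASH1 and none fell. These were WWTR1, TEAD1, TEAD4, VGLL1 and VGLL4. In limma's test with Benjamini-Hochberg adjustment over 14458 genes, 18.8% of all genes passed as higher and 32.0% passed in either direction. The median log2 change of the 8 members was 0.35, against 0.06 over all genes tested. The 2 libraries of each group did not overlap in any of the 8 genes, as was the case for 73.6% of all genes tested. A larger log2 change than that of WWTR1, TEAD1 or VGLL1 was seen in 8.63%, 8.80% and 9.83% of all genes tested, in that order. In bulk RNA a change in the share of cells expressing a gene and a change in RNA per cell cannot be told apart. All log2 changes are of TPM + 1, shSASH1 over shControl, which understates the change of low genes.

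**Figure D1:**
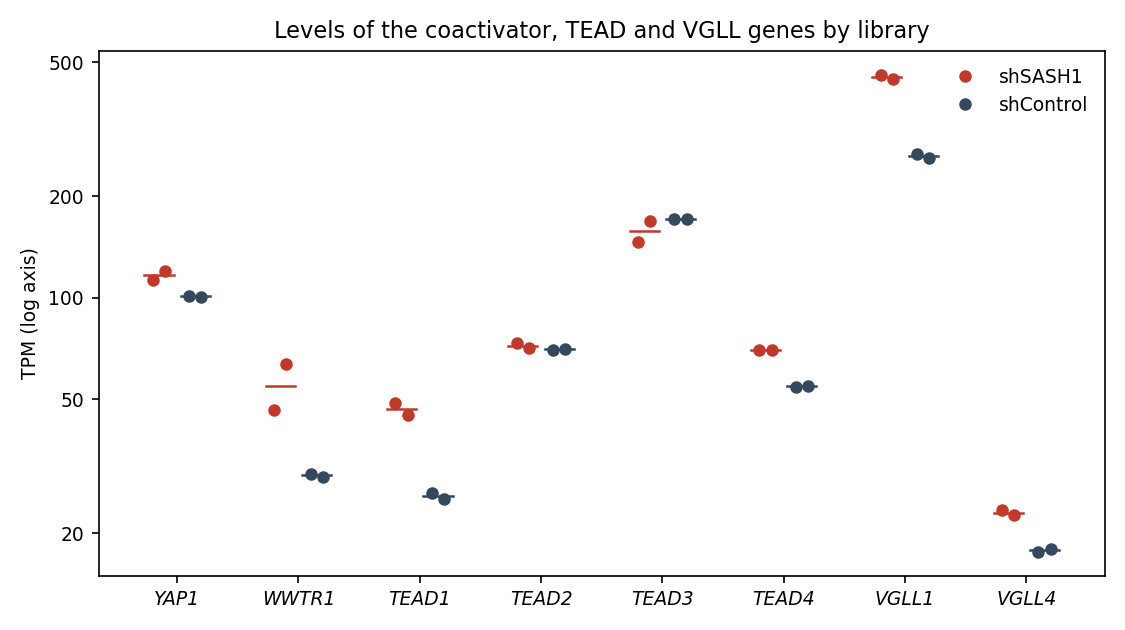
TPM of the 8 tested genes on a log axis, with 1 point per library and a bar at the mean of each group (shSASH1 left in red, shControl right in dark blue). VGLL1 is the highest gene in both groups, WWTR1 has the widest gap between its 2 shSASH1 libraries, and TEAD3 is the gene whose shSASH1 libraries lie below those of shControl.

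Among the coactivator genes, WWTR1 had 46.3 and 63.5 TPM in shSASH1, against 30.1 and 29.5 TPM in shControl. Both shSASH1 libraries were higher, and replicate 2 stood well above replicate 1. WWTR1 (ENSG00000018408, chromosome 3, 149517235 to 149736714, minus strand) averaged 54.9 ± 12.2 TPM in shSASH1 and 29.8 ± 0.430 TPM in shControl (SD, n = 2 each), a ratio of 1.84. Its log2 change was 0.84 ± 0.16 (SE; 95% interval 0.42 to 1.27; limma adjusted p = 0.0225). The antisense transcript WWTR1-AS1 lies within its span on the other strand and was under 1 TPM in every library.

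YAP1 (ENSG00000137693, chromosome 11, 102110461 to 102233423, plus strand) had 113 and 121 TPM in shSASH1, against 102 and 101 TPM in shControl. The shSASH1 libraries were both above the shControl libraries, at a ratio of means of 1.16. The log2 change was 0.21 with an unadjusted 95% interval of 0.05 to 0.37, and it did not pass (limma adjusted p = 0.0621). YAP1 did pass when either shSASH1 library was left out, with a log2 change of 0.25 (adjusted p = 0.0138) without replicate 1 and of 0.16 (adjusted p = 0.0385) without replicate 2, where the spread came from the narrow shControl pair alone.

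Relative to YAP1, WWTR1 was higher in both shSASH1 libraries. It was 0.409 and 0.527 of the YAP1 TPM in shSASH1, against 0.296 and 0.292 in shControl. The log2 ratio was higher by 0.66 in shSASH1, a 1.58-fold difference, with no overlap between the groups. An exact permutation test of 2 against 2 libraries, two-sided, cannot give less than p = 0.33, and it gave that value. YAP1 remained the more abundant coactivator transcript in every library.

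The TEAD family was split between 2 genes that rose and 2 that did not pass. TEAD1 had 48.7 and 44.9 TPM in shSASH1, against 26.3 and 25.3 TPM in shControl. The groups stood far apart relative to the gap within each. TEAD1 (ENSG00000187079, chromosome 11, 12674591 to 12944483, plus strand), a widely expressed TEAD factor, rose 1.81-fold, with a log2 change of 0.83 ± 0.08 (SE; limma adjusted p = 0.00492). TEAD4 had 69.99 and 70.00 TPM in shSASH1, against 54.3 and 54.9 TPM in shControl. Both pairs were close together, and the group ratio was 1.28. TEAD4 (ENSG00000197905, chromosome 12, 2959330 to 3040673, plus strand), known for its role in trophectoderm, had a log2 change of 0.35 ± 0.06 (SE; limma adjusted p = 0.0154).

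TEAD3 had the highest TPM of the TEAD genes in all 4 libraries. It had 146 and 169 TPM in shSASH1, against 171.9 and 171.8 TPM in shControl. Replicate 2 of shSASH1 came close to the shControl level and replicate 1 did not. TEAD3 (ENSG00000007866, chromosome 6, 35473597 to 35497076, minus strand), prominent in placenta, had a log2 change of -0.13 (95% interval -0.35 to 0.10; limma adjusted p = 0.307). Without shSASH1 replicate 2 its log2 change was -0.23, while without shSASH1 replicate 1 it was -0.023. The spread in these fits came from the narrow shControl pair alone. TEAD2 (ENSG00000074219, chromosome 19, 49340595 to 49362457, minus strand), known from early embryonic expression, had 73.3 and 70.9 TPM in shSASH1, against 69.9 and 70.7 TPM in shControl. Its log2 change was 0.04, with an interval of -0.12 to 0.19 (limma adjusted p = 0.669), and its sign turned under median-of-ratios scaling (-0.026), quantile normalization (-0.078) and voom on rebuilt reads (-0.024). CD37 and DKKL1 overlap TEAD2 on the other strand, and CD37 had 10.8 and 26.5 TPM in shSASH1 and 23.5 and 22.2 TPM in shControl, so some reads of this region may be shared.

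Summed over the 4 TEAD genes, the level was 338 and 355 TPM in shSASH1 and 322 and 323 TPM in shControl, a ratio of means of 1.07. The composition moved more than the sum. TEAD1 made up 14.4% and 12.6% of the TEAD sum in shSASH1, against 8.15% and 7.83% in shControl. TEAD4 made up 20.7% and 19.7% in shSASH1, against 16.8% and 17.0% in shControl. TEAD3 made up 43.3% and 47.7% in shSASH1, against 53.3% and 53.2% in shControl. TEAD2 stood at 21.7% and 19.98% in shSASH1 and 21.7% and 21.9% in shControl. The exact permutation p, two-sided, was 0.33 for each of the 4 shares, the smallest that 2 against 2 libraries allow. These shares are per length: in rebuilt reads not divided by length, the differences, shSASH1 minus shControl, were 12.4 percentage points for TEAD1, 0.852 for TEAD4, -10.7 for TEAD3 and -2.58 for TEAD2, against 5.53, 3.28, -7.83 and -0.979 in TPM, with each direction kept.

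**Figure D2:**
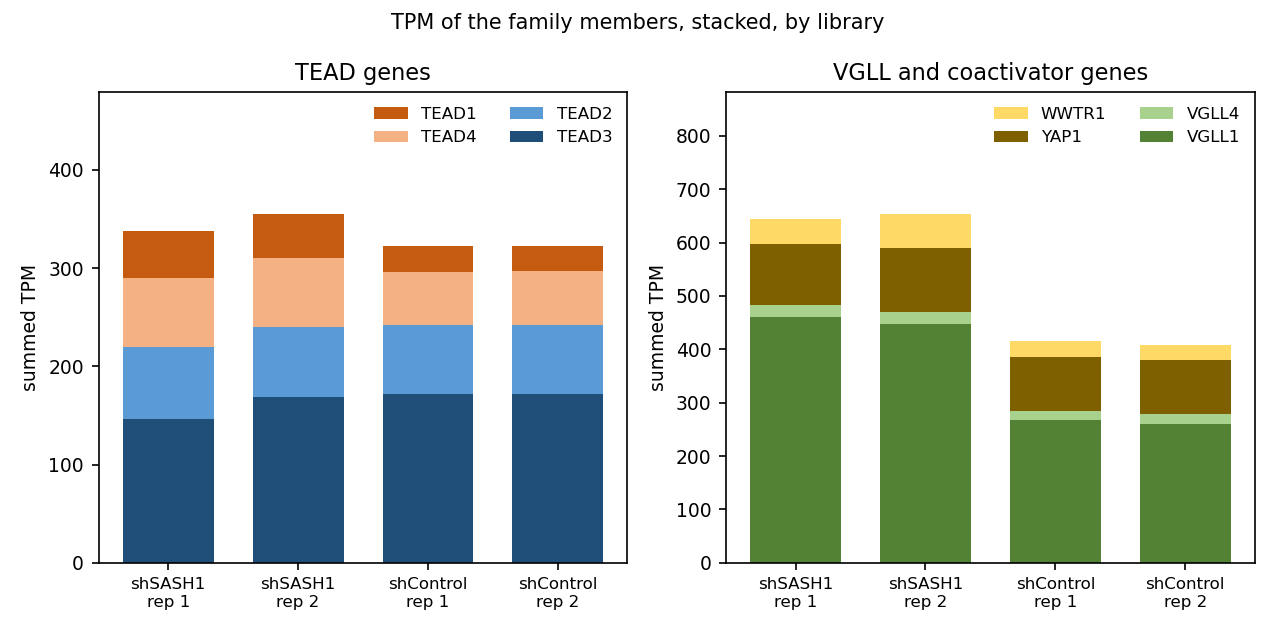
Stacked bars of TPM by library, the TEAD genes on the left and the VGLL1, VGLL4, YAP1 and WWTR1 genes on the right; each segment is 1 gene. The TEAD sums lie between 322 and 355 TPM in all 4 libraries with a wider TEAD1 segment in shSASH1, and the right bars are taller in shSASH1 mainly through VGLL1.

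VGLL1 had the highest TPM of the 9 genes in every library. It had 460 and 447 TPM in shSASH1, against 267 and 260 TPM in shControl. Both shSASH1 libraries were high, and the gap between the groups was many times the gap within them. VGLL1 (ENSG00000102243, chromosome X, 136532152 to 136556807, plus strand), a cofactor expressed in placenta and in basal-like breast tumours, averaged 453 ± 9.61 TPM in shSASH1 and 264 ± 4.64 TPM in shControl (SD, n = 2 each). Its log2 change was 0.78 ± 0.05 (SE; limma adjusted p = 0.00308), a 1.72-fold rise. Only 3.27% of the genes tested had a higher mean TPM in shControl. In rebuilt reads, not divided by length, YAP1 had more than VGLL1 in every library. In shSASH1 these were 4686 and 3976 for YAP1 and 4657 and 3605 for VGLL1. In shControl they were 3750 and 4356 for YAP1 and 2412 and 2753 for VGLL1. MIR934, which overlaps VGLL1 on the same strand, was listed at 0.

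VGLL4 (ENSG00000144560, chromosome 3, 11556070 to 11771350, minus strand) had 23.4 and 22.6 TPM in shSASH1, against 17.6 and 18.02 TPM in shControl. The pairs did not overlap, and the ratio of means was 1.29. The log2 change of this TEAD-binding antagonist of YAP was 0.35 ± 0.08 (SE) and passed narrowly (limma adjusted p = 0.0333). The call did not hold under median-of-ratios scaling (0.29, adjusted p = 0.0598) or quantile normalization (0.27, adjusted p = 0.0744), with the direction kept. It did not hold with a block on replicate number either (0.35, limma adjusted p = 0.0796). ATG7, on the other strand, overlaps VGLL4 and had 6.35 and 7.20 TPM in shSASH1 and 7.49 and 7.92 TPM in shControl.

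VGLL3, a VGLL gene known from skin and mesenchymal tissues, was close to absent. A single rebuilt read in shSASH1 replicate 1 (0.0120 TPM) was all that the 4 libraries held, and in the other 3 a count of 0 allows up to 3 reads, or 0.0344 to 0.0451 TPM, counting error only. It was under the filter and was not tested. The relative left out of the list by its rule, VGLL2, was at 0 in all 4 libraries, which allows up to 0.196 to 0.257 TPM.

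Set against the coactivators, VGLL1 was 2.88 and 2.43 times the summed TPM of YAP1 and WWTR1 in shSASH1, against 2.03 and 1.998 times in shControl. This ratio was 1.31-fold higher in shSASH1 without overlap (exact permutation p = 0.33, two-sided, the smallest possible). The ratio of VGLL4 to the same sum was 0.147 and 0.123 in shSASH1, against 0.134 and 0.138 in shControl. Here the groups overlapped, and the exact permutation p was 1. The coactivator sum was 160 and 184 TPM in shSASH1, against 132 and 130 TPM in shControl, and the ratio of that sum to the TEAD sum was 0.472 and 0.519 in shSASH1, against 0.408 and 0.404 in shControl. The exact permutation p of that last ratio, two-sided, was again 0.33.

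The order of levels was the same in both groups: VGLL1, TEAD3, YAP1, TEAD2, TEAD4, WWTR1, TEAD1 and VGLL4. In shSASH1 the ranges of WWTR1 and TEAD1 overlapped, and every other neighbouring pair in the order was separated in its libraries. TEAD2 and TEAD4 came close in shSASH1, at means of 72.1 and 69.99 TPM, while in shControl they stood at 70.3 and 54.6 TPM.

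**Figure D3:**
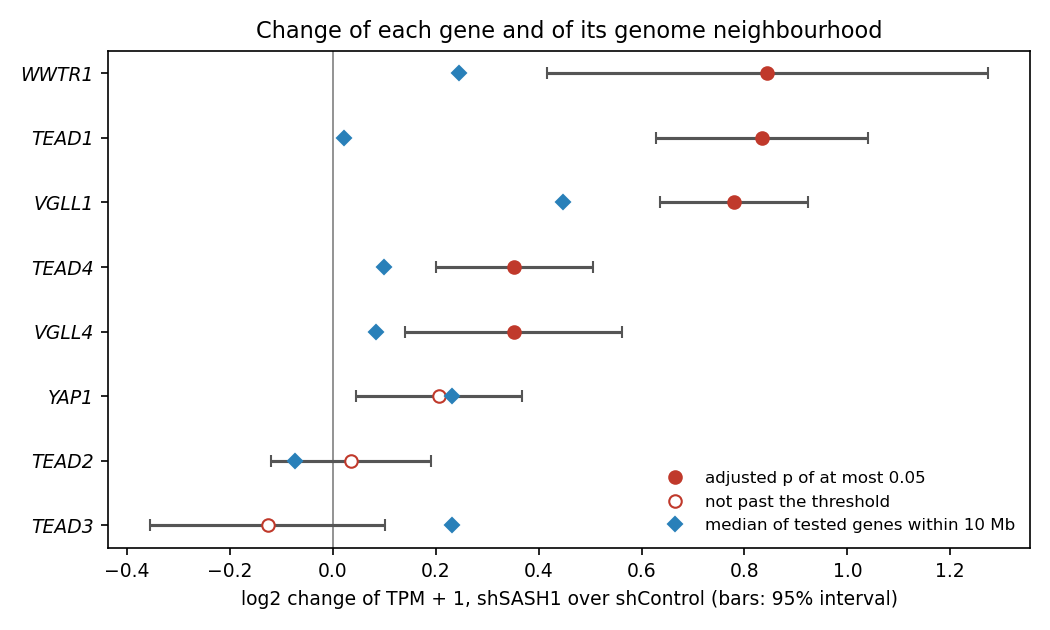
Log2 change of TPM + 1, shSASH1 over shControl, with its unadjusted 95% interval for each tested gene (filled circles passed an adjusted p of 0.05, open circles did not), and the median log2 change of all tested genes within 10 Mb (blue diamonds). WWTR1, TEAD1 and VGLL1 lie between 0.78 and 0.84, TEAD4 and VGLL4 near 0.35, and the YAP1 circle lies beside its neighbourhood's diamond.

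Genes near each other in the genome moved together around some members, so each member was also set against the tested genes within 10 Mb. Around VGLL1, 36 of 43 tested genes had a log2 change above 0, with a median of 0.45, and 21 passed as higher. Over all genes tested, 55.3% had a log2 change above 0 and 18.8% passed as higher. Measured from that local median, VGLL1 was higher by 0.34 and still passed (limma adjusted p = 0.0332). Around WWTR1 the median of 60 genes was 0.25, and the centred log2 change of WWTR1 was 0.59 (limma adjusted p = 0.0451). Around TEAD1 the median of 101 genes was 0.02 and the centred value was 0.80 (limma adjusted p = 0.00716). TEAD4 (106 genes, median 0.10) had a centred value of 0.26 (limma adjusted p = 0.0486), and VGLL4 (84 genes, median 0.08) one of 0.29 that did not pass (adjusted p = 0.0676).

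The 3 genes that had not passed were set on the same scale. YAP1 had a centred log2 change of -0.016 (limma adjusted p = 0.855), its 68 neighbours having a median of 0.23. TEAD3 lay in a region where 233 of 318 tested genes had a log2 change above 0 (median 0.23), and its centred value of -0.36 passed as lower (limma adjusted p = 0.0340). TEAD2 had a centred log2 change of 0.11 and did not pass (limma adjusted p = 0.355), its 479 neighbours having a median of -0.07, with 90 lower and 45 higher. Of all genes tested, 13.0% passed as higher and 11.4% as lower after this centring.

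**Figure D4:**
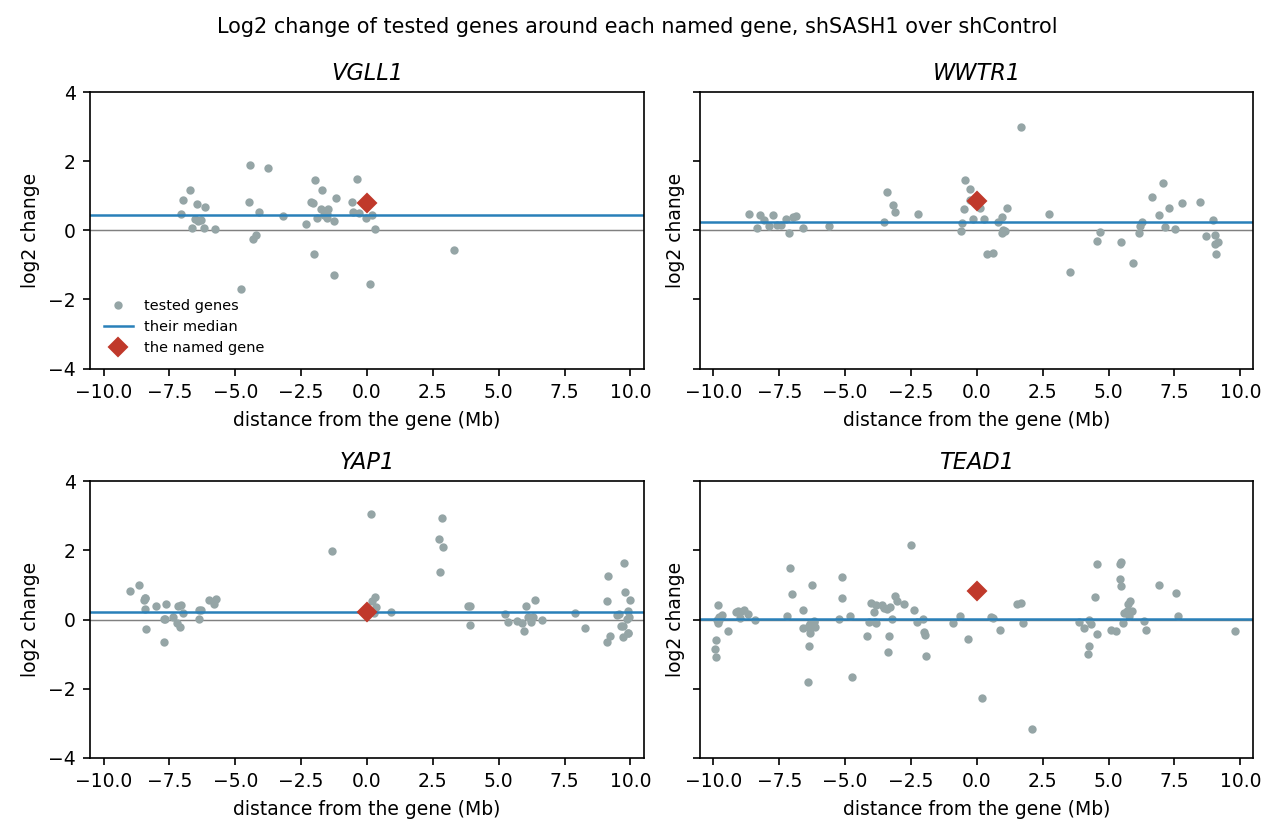
Log2 change, shSASH1 over shControl, of every tested gene within 10 Mb of VGLL1, WWTR1, YAP1 and TEAD1 against its distance from that gene in Mb; grey points are genes, the blue line is their median and the red diamond is the named gene. VGLL1 sits in a region with a median of 0.45, YAP1 lies at its regional median, and TEAD1 lies above a regional median of 0.02.

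The nearest tested protein-coding genes differed from member to member. COMMD2, 1.76 kb from WWTR1, had 62.1 and 71.1 TPM in shSASH1, against 41.8 and 43.1 TPM in shControl, and rose with it (log2 change 0.63, limma adjusted p = 0.0107). TM4SF4, on the other side, did not pass (log2 change 0.33, adjusted p = 0.456). Next to TEAD1, RASSF10 fell to 3.25 and 1.06 TPM in shSASH1, against 11.996 and 14.4 TPM in shControl (log2 change -2.26, limma adjusted p = 0.0164). PARVA, on the other side of TEAD1, had a log2 change of -0.57 and did not pass (adjusted p = 0.0728). Beside VGLL1, HTATSF1 rose (log2 change 0.34, limma adjusted p = 0.0206) and ARHGEF6 did not pass (0.44, adjusted p = 0.282). Beside TEAD4, TULP3 rose (0.43, limma adjusted p = 0.0202) and TSPAN9 did not pass (0.07, adjusted p = 0.606). Neither neighbour of VGLL4 passed, HRH1 at 0.28 (limma adjusted p = 0.231) and TAMM41 at -0.37 (adjusted p = 0.106).

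Both neighbours of YAP1, named here after their values were seen, rose far more than YAP1 itself. BIRC3, an inhibitor of apoptosis encoded 84.0 kb away, had 45.4 and 87.9 TPM in shSASH1, against 6.99 and 6.47 TPM in shControl (log2 change 3.06, limma adjusted p = 0.00605). ARHGAP42 on the other side, 1117 kb away, had 3.50 and 3.03 TPM in shSASH1, against 0.0732 and 0.0782 TPM in shControl (log2 change 1.99, limma adjusted p = 0.00631). YAP1, lying between them, differed by 0.21.

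Genes with the pattern most like a member were found by the Euclidean distance between log2(TPM + 1) values over the 4 libraries, each gene set against its shControl mean, among 10506 other protein-coding genes of at least 5 TPM. The nearest to YAP1 were ZNF354A (distance 0.01), USP8 (0.02) and CNOT11 (0.02). CNOT11, for example, had 144 and 153 TPM in shSASH1, against 128 and 127 TPM in shControl. Nearest to WWTR1, with replicate 2 above replicate 1 in shSASH1, were SLFN11 (0.03), IL13RA1 (0.04) and MCOLN2 (0.04). Nearest to TEAD1 were TGFBR1 (0.03), SPTSSA (0.04) and CDR2L (0.04), and TGFBR1 had 48.9 and 44.5 TPM in shSASH1, against 25.7 and 25.2 TPM in shControl. Since each gene was set against its own shControl mean, these distances describe the change and the spread over 4 libraries, not the level.

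The genes that act on or through these factors were counted from lists of known pathway genes. Of the 19 genes tested from a YAP/TAZ target signature of 22, 13 rose and none fell, with a median log2 change of 0.62. FOXF2 and AXL were under the filter, with shSASH1 libraries below the shControl libraries. FOXF2 had 0.124 and 0 TPM in shSASH1 against 1.25 and 1.49 TPM in shControl, and AXL 0.445 and 0.595 TPM in shSASH1 against 1.16 and 1.56 TPM in shControl. With no filter on low values, 10 of 21 signature genes passed as higher (10.4% of all genes did) and 1, FOXF2, as lower (limma adjusted p = 0.0124, with 8.01% of all genes lower). CCN1, a matricellular gene widely used as a YAP readout, had 315 and 211 TPM in shSASH1, against 31.1 and 32.0 TPM in shControl (log2 change 2.99, limma adjusted p = 0.00301). The other called members with the largest change were CCDC80 (2.37), the ankyrin repeat gene ANKRD1 (1.94, with 14.2 and 5.50 TPM in shSASH1 against 1.72 and 1.47 TPM in shControl) and CCN2 (1.34). ANKRD1 (limma adjusted p = 0.0325) had 20 rebuilt reads in each shControl library. It did not pass with no filter on low values (limma adjusted p = 0.0614), while CCDC80 and CCN2 did. Of the 22 genes tested from 24 Hippo core and upstream genes, 13 rose and none fell, with a median of 0.36. The cytoskeletal phosphatase PTPN14 (1.05), merlin NF2 (0.95) and the YAP-binding angiomotins AMOT (0.76) and AMOTL2 (0.62) had the largest changes among these. The 65 tested genes around AMOT had a median log2 change of 0.70, and after centring within 10 Mb AMOT was at 0.08 and did not pass (limma adjusted p = 0.622), while PTPN14 was at 0.60 and passed (adjusted p = 0.0303). PTPN14, AMOTL2 and LATS2 stand in both lists. Of all genes tested, 18.8% passed as higher and 13.3% as lower. With no filter on low values, 9 of 24 Hippo genes passed as higher and none as lower. After centring within 10 Mb, 11 of the 19 signature genes passed as higher and 1, NUAK2 (-0.81), as lower, and 11 of the 22 Hippo genes passed as higher and none as lower. Of all genes tested, 13.0% passed as higher and 11.4% as lower after centring.

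The proteins that meet YAP, TAZ or TEADs on DNA were more mixed. Of the 16 genes tested from 21 nuclear partners, 5 rose and 1 fell, with a median log2 change of 0.12, which is 31.2% higher and 6.25% lower beside 18.8% and 13.3% of all genes tested. SMAD3, a TGF-beta effector that binds TAZ, had 56.2 and 71.8 TPM in shSASH1, against 32.7 and 31.2 TPM in shControl (log2 change 0.97, limma adjusted p = 0.0104). The AP-1 subunit FOSL1 (0.97) and the Runt factor RUNX3 (0.94), a TEAD-binding protein, rose too. RUNX2, another Runt factor, fell to 2.57 and 2.07 TPM in shSASH1, against 5.62 and 4.75 TPM in shControl (log2 change -0.90, limma adjusted p = 0.0240). With no filter on low values RUNX2 did not pass (limma adjusted p = 0.0514). In that fit 31.6% of 19 partners passed as higher and none as lower, beside 10.4% and 8.01% of all genes. After centring within 10 Mb, 25.0% of 16 passed as higher and 6.25% as lower, beside 13.0% and 11.4% of all genes. The lower gene was again RUNX2 (-1.12, limma adjusted p = 0.0240).

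Of 22 enzymes and 14-3-3 proteins that act on the coactivator or TEAD proteins, 5 rose and 3 fell, with a median log2 change of 0.02. These shares, 22.7% higher and 13.6% lower, lie near the 18.8% and 13.3% of all genes tested. The deubiquitinase USP9X fell to 41.3 and 41.7 TPM in shSASH1, against 74.3 and 70.1 TPM in shControl (log2 change -0.78, limma adjusted p = 0.00400). The 76 tested genes around USP9X had a median log2 change of -0.81, and after centring within 10 Mb USP9X was at 0.06 and did not pass (limma adjusted p = 0.538). The 14-3-3 zeta gene YWHAZ, whose protein family holds phosphorylated YAP in the cytoplasm, fell to 503 and 462 TPM in shSASH1, against 784 and 789 TPM in shControl (log2 change -0.70, limma adjusted p = 0.00511). The 14-3-3 genes as a family were mixed. YWHAE fell (-0.27, limma adjusted p = 0.0463), YWHAG rose (0.25, adjusted p = 0.0393), and YWHAB, YWHAH, YWHAQ and SFN did not pass. After centring, YWHAZ (-0.58, limma adjusted p = 0.0173) and YWHAG (0.33, adjusted p = 0.0262) still passed and YWHAE did not (-0.20, adjusted p = 0.176). SFN passed as lower after centring (-0.47, limma adjusted p = 0.0296). With no filter on low values, YWHAZ passed (limma adjusted p = 0.0121), while YWHAE (adjusted p = 0.0775) and YWHAG (adjusted p = 0.0556) did not. The ubiquitin ligase NEDD4L (0.71) and the methyltransferase SETD7 (0.41) rose, but did not pass after centring (0.56, adjusted p = 0.0798, and 0.30, adjusted p = 0.0731, limma).

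**Figure D5:**
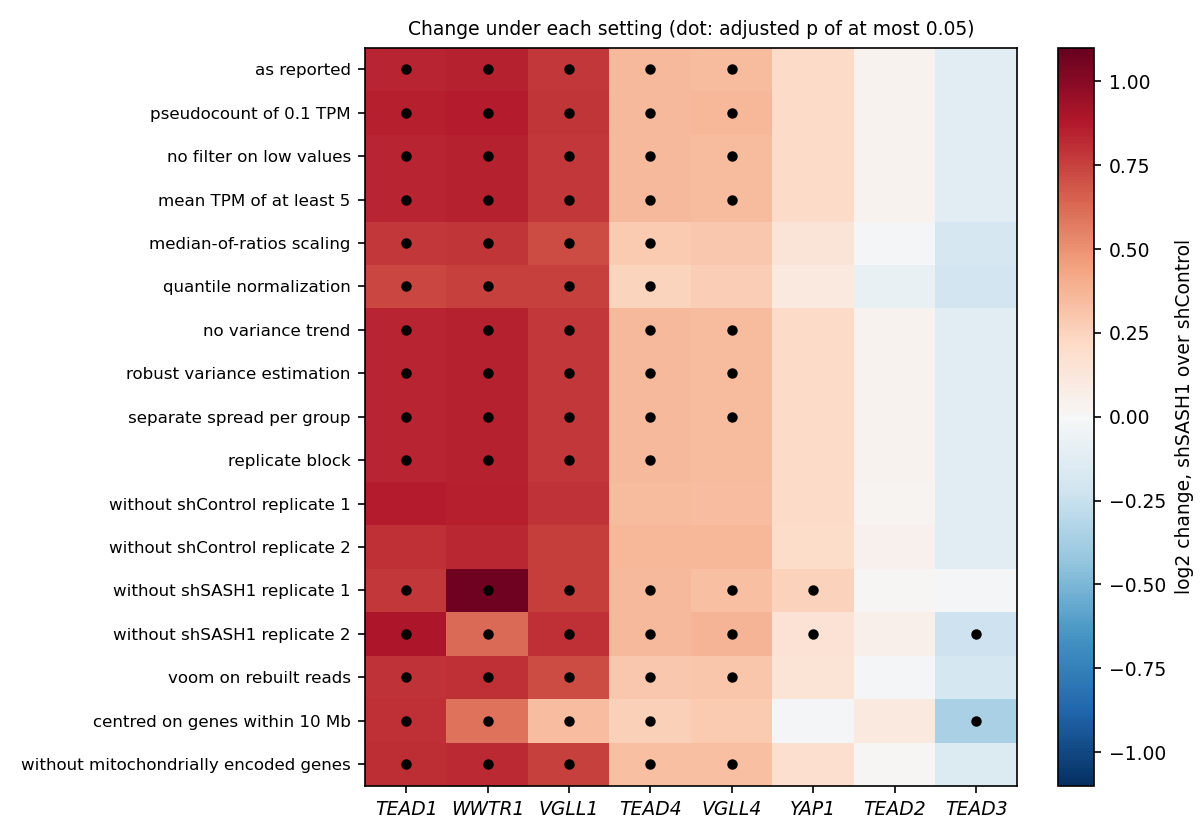
Colour gives the log2 change, shSASH1 over shControl, of each tested gene (columns) under each setting (rows), and a black dot marks an adjusted p of at most 0.05. TEAD1, WWTR1, VGLL1 and TEAD4 carry a dot in every row except those that leave out a shControl library, and VGLL4 loses its dot under 4 further settings.

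Across the settings tried, the log2 changes of WWTR1, TEAD1, TEAD4, VGLL1 and VGLL4 were above 0 in every fit. Settings that alter only the filter, the variance model or the block leave the log2 change as it was. Leaving out 1 library or changing the pseudocount cannot turn the sign where the groups do not overlap. Only the other scalings, voom, centring and leaving out mitochondrially encoded genes could therefore change the direction. Without shControl replicate 1, and likewise without shControl replicate 2, none of the 14458 genes passed in limma, the spread then coming from the shSASH1 pair alone, and 3446 and 3326 genes had an unadjusted p under 0.05 in these fits.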

How the data were processed

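RNA-seq libraries were made from TRIzol-extracted RNA with an NEBNext Ultra kit, per the labels' protocols. The authors deposited TPM per Ensembl gene. The submitters' processing notes name STAR, DESeq2 and hg38 and give neither a version nor a role for any of them. How reads were counted, on which strand, and with which annotation and gene lengths is not given in the sources used here.

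Identifiers were matched to GENCODE 29 (26518 of 26518). A mean of 1 TPM or more was required for a test, which was limma's (version 3.58.1, R 4.3.3) on log2(TPM + 1) values, using a variance trend and no replicate block, two-sided, at an adjusted p of 0.05. Reads were rebuilt from TPM and exon length, 88.4% to 89.2% of values of up to 20 reads falling within 0.05 of a whole number. Ratios and shares were tested by exact permutation over libraries.

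The members and lists were chosen with earlier results of these data known. Named genes were the members, SASH1, VGLL2, up to 4 called genes per list with the largest change, the 3 genes nearest in pattern to YAP1, WWTR1 and TEAD1, the genome neighbours of called members and cell type markers; the neighbours of YAP1, FOXF2, AXL and the signature gene lower after centring were named after their values were seen. Other settings were another pseudocount and filters, 2 other scalings, 3 variance models, blocking on replicate number, leaving out single libraries, voom on rebuilt reads, centring within 10 Mb, leaving out mitochondrially encoded genes and a change of at least 1. The ratio with VGLL1, and the lists without a filter and centred, were added after seeing the data. On 5 simulated data sets (14458 genes, 200 changed), limma called 36.4% of the genes given a log2 change of 1 and 71.6% of those given 2, and 5.01% of its calls were false. The simulated spreads were shuffled over genes and were equal in both groups. In the data the median SD was 0.126 in shSASH1 and 0.0507 in shControl, and 4630 genes were called. The simulated rates therefore need not hold for this comparison. Tables were handled in Python 3.11.15 (pandas 2.3.3, numpy 2.4.6), permutations used scipy 1.17.1, and plots were drawn with matplotlib 3.10.9.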

Additional observations from a re-analysis of the deposited data

How the results depend on the processing

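Of all genes, 4630 passed (2712 higher and 1918 lower), between 3529 and 5317 under 12 other settings, 1288 with a log2 change of at least 1, and 0 to 7728 with 1 library left out. Quantile normalization gave 2280 higher and 2434 lower. Of the members, 5 passed, 4 or 5 under the same 12 settings, none with a log2 change of at least 1, and 0 to 7 with 1 library left out. VGLL4 did not pass under median-of-ratios scaling (0.29), quantile normalization (0.27) or centring within 10 Mb (0.29). The replicate block ended the VGLL4 call as well (log2 change 0.35, adjusted p = 0.0796) and gave 3929 genes in all. Deviations of same-numbered libraries correlated at -0.0322, so the numbers are not taken to pair the samples. TEAD2 changed sign under median-of-ratios scaling (-0.026), quantile normalization (-0.078) and voom (-0.024). Centring within 10 Mb turned YAP1 to -0.016 and brought TEAD3 (-0.36) past the threshold. The cause of these changes was not tested.

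With 1 library left out, log2 changes ranged from 0.78 to 0.89 for TEAD1, 0.62 to 1.07 for WWTR1, 0.76 to 0.80 for VGLL1, 0.34 to 0.36 for TEAD4, 0.33 to 0.37 for VGLL4, 0.16 to 0.25 for YAP1 and -0.23 to -0.023 for TEAD3. The 5 called genes missed the threshold without either shControl library. The difference in the log2 ratio of VGLL4 to the coactivators, -0.02, ranged from -0.15 to 0.11, with reversed values of 0.004 without shControl replicate 2 and 0.11 without shSASH1 replicate 2.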
